A study of Mus musculus with 8 samples.

Results

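Dlk1, H19, Igf2, Peg3, Mest, Plagl1, Grb10, Peg10, Ndn and Nnat are 10 imprinted genes of the mouse, and their transcripts were followed in fetal gonads before and after immunoprecipitation of the RNA-binding protein DAZL. Every non-control probe that carried the name of 1 of these genes, or an older name of it, was taken. The 10 genes are among 19674 that the probes name. There were 18 such probes among 41101, and 15 of them, for 9 of the 10 genes, were among the 18265 probes that could be tested. The samples were gonads of XX and XY MCH mouse fetuses at E14.5. An antibody against DAZL was used to pull down the protein with the RNA bound to it (RNA immunoprecipitation, RIP), and the recovered RNA was hybridised to arrays. A lot was 50 gonads, from whose lysate 5% was set aside as the input, and the labelling reactions started from 50 ng (inputs) or 1 ng (precipitates) of RNA. The 8 one-colour arrays formed 4 groups of 2, the input and the immunoprecipitate (IP) of each sex. No group carried a genetic change or a drug treatment, and no IP with a control antibody was analysed here, so a difference between IP and input also holds any RNA that stays on the beads without DAZL. The lots are whole gonads, in which germ cells, the cells that make DAZL, lie among somatic cells. In such bulk samples fewer cells of a type and less RNA per cell cannot be told apart. The XX arrays lay on 1 slide and the XY arrays on another, so sex and slide cannot be told apart, whereas IP and input of a sex shared a slide.

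An imprinted gene is transcribed mainly from the copy inherited from 1 parent. In most tissues Dlk1, Igf2, Peg3, Mest, Plagl1, Peg10, Ndn and Nnat are expressed from the paternal copy, and H19 and, outside the nervous system, Grb10 from the maternal copy. Many of these genes act on fetal growth, and germ cells of the fetus erase the methylation marks that set the parental choice. The arrays measured total transcript and did not separate the parental copies.

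The transcripts of H19, Igf2 and Mest span microRNA genes, whose mature sequences are shown because these are 3 of the most fully measured genes below and because a cRNA array reads the host transcript and not the mature microRNA. Mir675 lies inside H19, Mir483 inside Igf2 and Mir335 inside Mest. The sequences are those of RefSeq on GRCm38.p6, written 5′ to 3′, with the seed (bases 2 to 8) in capitals, and the 6 seeds all differ.
mmu-miR-675-5p: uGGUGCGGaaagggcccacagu
mmu-miR-675-3p: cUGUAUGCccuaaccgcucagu
mmu-miR-483-5p: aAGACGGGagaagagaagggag
mmu-miR-483-3p: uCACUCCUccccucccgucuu
mmu-miR-335-5p: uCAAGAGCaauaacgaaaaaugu
mmu-miR-335-3p: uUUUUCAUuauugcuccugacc
No level of these microRNAs was measured.

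Levels are log2 signals, each relative to the 75th percentile over probes of its own array, in the order replicate 1 and then replicate 2, and a level is compared only between arrays for the same probe. Where a group was not well above background on either array, only a bound ("at least") is given for a fold, and no fold where that bound is under 1. The input arrays had 16713 to 20391 probes well above background, the IP arrays had 6068 to 9468, and the 75th percentile of the signal ranged between 77.4 and 173 scanner units for input arrays and between 6.83 and 13.1 for IP arrays. Sex-linked transcripts followed the labels. The Xist probe was at least 5.51-fold higher in the XX input, and Eif2s3y, Ddx3y and Kdm5d probes were at least 62.8-, 16.3- and 4.52-fold higher in the XY input (limma, adjusted p = 0.000245, 3.03e-06, 7.29e-06 and 0.00272). Dazl mRNA itself rose in the IP by 2.69 (log2, SE 0.39, adjusted p = 0.00031) in XX and by 2.06 (SE 0.39, adjusted p = 0.00201) in XY.

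Of the 15 tested probes, 14 were well above background on all 4 input arrays, against 84.3% of all tested probes, which a filter on detection had let through. On the IP arrays, 7 probes of 6 genes (Dlk1, H19, Igf2, Mest, Plagl1 and Grb10) were above background on all 4, and 7 probes were above background on none. Among all tested probes, 40.3% were above background on no IP array. Peg10 was above background on no input array, and Peg3, Ndn and Nnat had no IP level above background with any probe.

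**Figure D1:**
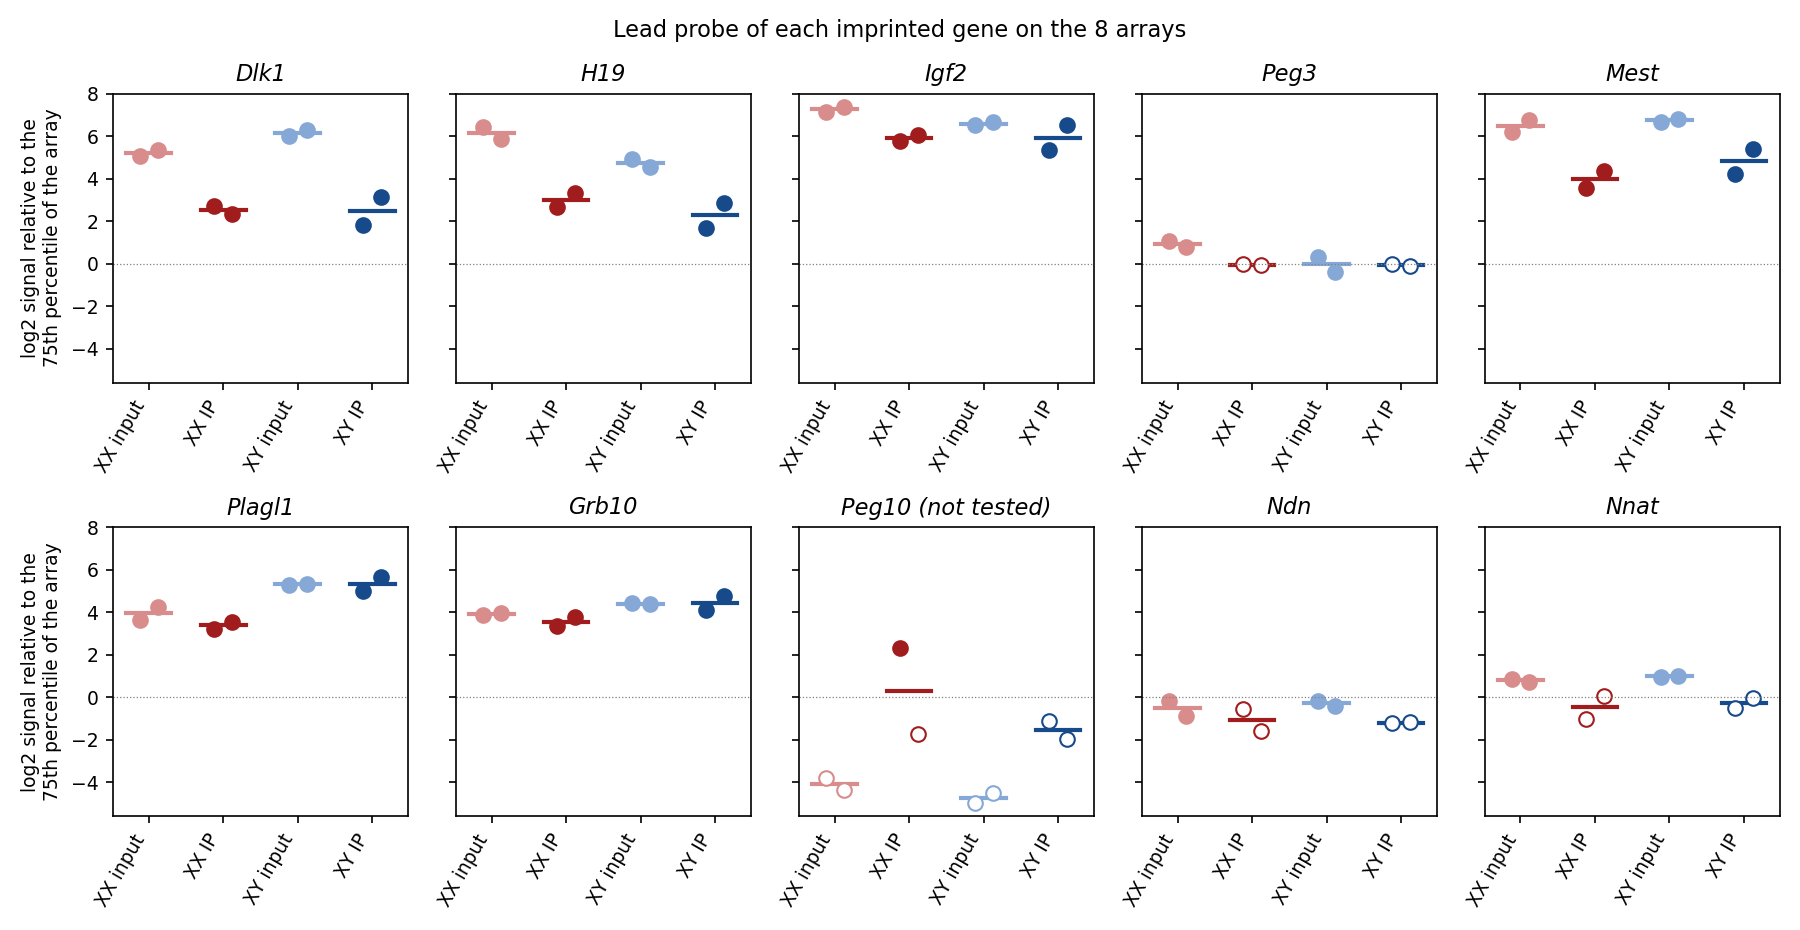
Level of the lead probe of each gene (the probe with the highest mean among its tested probes) as log2 signal relative to its array's 75th percentile, in the 4 groups. Each point is 1 array, a bar is the mean of 2 arrays, filled points are well above background and open points are not. Dlk1, H19 and Mest lie lower in the IP than in the input in both sexes, Plagl1 and Grb10 overlap between them in XY, and Peg10 has 1 filled point.

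Comparison of IP with input asks which of these transcripts came down with DAZL. Dlk1, H19 and Mest were depleted in the IP of XX gonads, and Dlk1 and H19 in that of XY gonads, where depleted means an adjusted p under 0.05 and a fall of at least 4-fold. No probe of the 10 genes was enriched in either sex by the same limits. In XX, 5 of 15 probes (3 genes) were depleted, against 9.91% of all tested probes, and 0 were enriched, against 14.0%. In XY, 4 of 15 probes (2 genes) were depleted, against 7.68%, and 0 were enriched, against 10.2%. At an adjusted p under 0.05 without the fold limit, 9 probes of 6 genes were lower in the XX IP, against 22.8% of all tested probes, and 1 was higher, against 25.9%. In XY by the same rule, 7 probes of 5 genes were lower, against 20.6%, and 0 were higher, against 20.2%. At an unadjusted p under 0.05 by limma, 1 probe was higher and 10 were lower in XX, against 29.4% and 26.5% of all tested probes, and 0 were higher and 7 lower in XY, against 24.3% and 25.4%. An ordinary two-sample test, which is run on the same values without moderation, gave 0 higher and 9 lower in XX, against 19.3% and 15.3%, and 0 higher and 5 lower in XY, against 15.6% and 13.8%, and after adjustment it left 0 of the 15 enriched or depleted. That test called 1 of the 18265 probes depleted and 0 enriched in XX, and 2 and 11 in XY, so its 0 says nothing about these genes. The median difference of the 15 probes was -1.36 (log2, IP minus input) in XX and -0.91 in XY, beside 0.09 and -0.03 over all tested probes. Among the 15, 14 lay under the median of all tested probes in XX and 12 in XY. Of the 15, 7 were above background on no IP array and could be tested through the inputs alone, so their differences rest on IP signals below background. The 7 probes above background on all 8 arrays had medians of -1.996 in XX and -1.51 in XY, beside 0.56 and 0.41 for all such probes. In each sex 7 of these 7 lay under the median of all such probes. With 2 arrays per group, and no label saying that replicates came from separate lots, p-values measure the spread between these samples only, which may be technical.

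**Figure D2:**
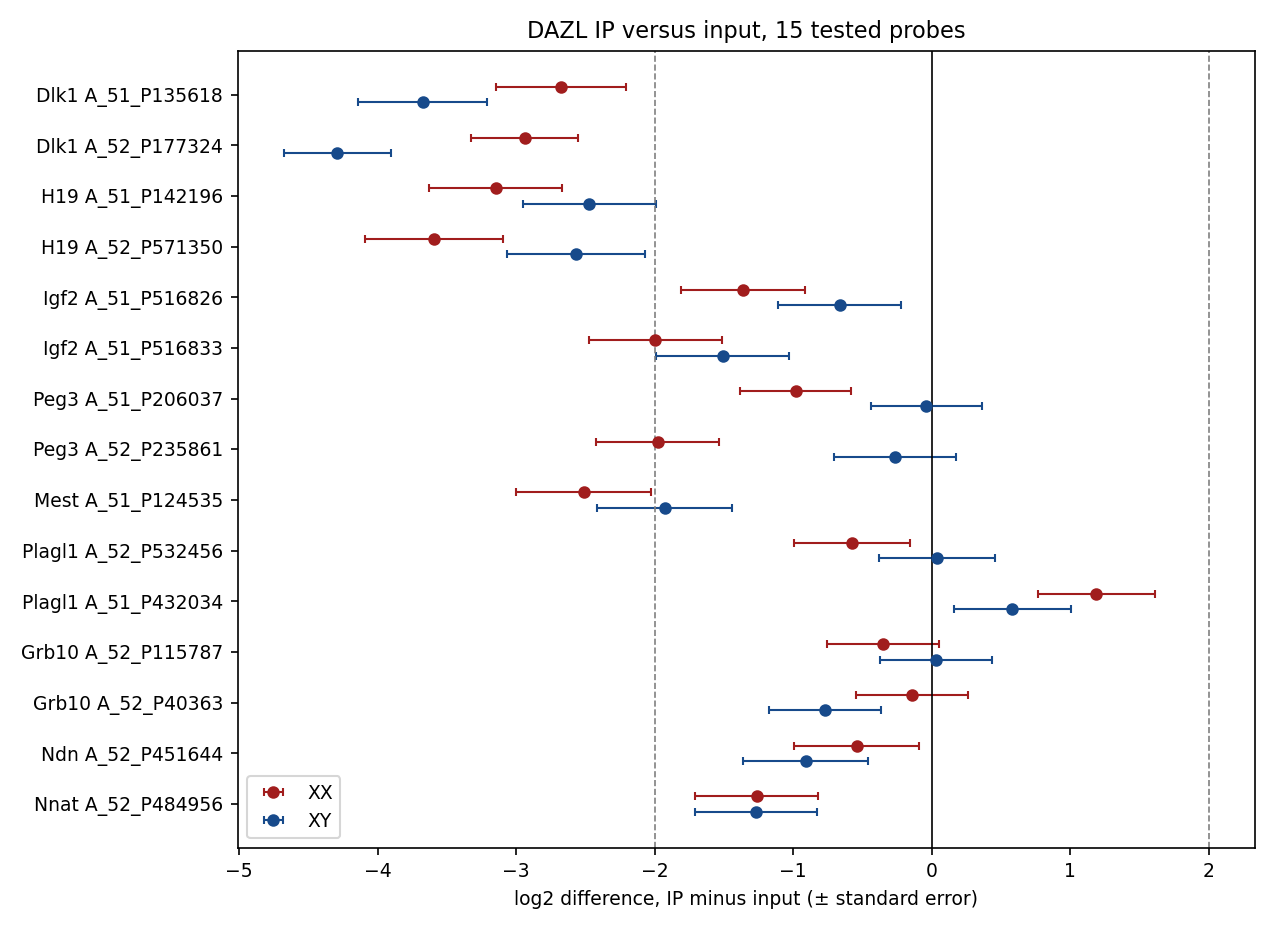
Log2 difference between DAZL IP and input for each of the 15 tested probes, in XX (red) and XY (blue). Points are contrasts of the limma fit with n = 2 arrays per group, bars are standard errors, and the dashed lines mark 4-fold (2 on the log2 scale). The Dlk1 and H19 probes lie below -2 in both sexes, and no probe lies above 2.

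Igf2, a secreted growth factor, and H19, a long non-coding RNA, are neighbours on chromosome 7 and are expressed from opposite parental copies. The H19 probe A_51_P142196 (chr7:142385254-142385313, minus strand, mm8) had levels of 6.43 and 5.90 in the XX input and 2.68 and 3.35 in the XX IP. In XY its levels were 4.94 and 4.56 in the input and 1.71 and 2.85 in the IP. Both IP arrays lay under both input arrays in each sex, with no overlap. H19 was 8.87-fold lower in the XX IP (log2 difference -3.15, SE 0.48, adjusted p = 0.000382) and 5.55-fold lower in the XY IP (-2.47, SE 0.48, adjusted p = 0.0022). Without XY IP replicate 1 the XY difference was -1.90 (log2), short of the 4-fold limit.

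The other H19 probe, A_52_P571350 (chr7:142385503-142385650), was at 5.05 and 4.26 in the XX input and 0.55 and 1.57 in the XX IP, and at 3.72 and 3.21 in the XY input and 0.47 and 1.33 in the XY IP. The groups did not overlap in either sex, and 1 of 2 IP arrays was above background in each. The differences were -3.59 (log2, SE 0.50, adjusted p = 0.000244) in XX and -2.57 (SE 0.50, adjusted p = 0.00224) in XY, and with the normexp background correction the XY difference was -1.97 (adjusted p = 0.0594), which did not pass, or -2.70 (adjusted p = 0.00117), which did, once outlying local backgrounds were replaced.

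Igf2 was lower in the XX IP with both of its probes. Its lead probe A_51_P516826 (chr7:142460185-142460245, minus strand) was at 7.17 and 7.40 in the XX input and 5.78 and 6.06 in the XX IP, and at 6.55 and 6.67 in the XY input and 5.37 and 6.52 in the XY IP. The XX groups were apart, and in XY both IP arrays lay under the inputs, replicate 2 only just. The XX IP was 2.57-fold lower (log2 difference -1.36, SE 0.45, adjusted p = 0.0249), and the XY difference of -0.66 (SE 0.45, adjusted p = 0.254) did not pass.

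The second Igf2 probe, A_51_P516833 (chr7:142460600-142460659), was at 4.23 and 4.15 in the XX input and 1.79 and 2.60 in its IP, and at 3.75 and 3.67 in the XY input and 1.57 and 2.83 in its IP. All IP values lay under all input values of the same sex. Its XX IP was 3.99-fold lower (SE 0.48 on the log2 scale, adjusted p = 0.0054), just short of the 4-fold limit and so not counted as depleted, and its XY IP 2.85-fold lower (-1.51, SE 0.48, adjusted p = 0.0266). Both probes had lower means in the IP in both sexes, but in XY only the second passed, and that rested on single arrays. Without XY IP replicate 1 the XY difference of the second probe was -0.88 (adjusted p = 0.142), without XY input replicate 1 or 2 it was -1.47 (adjusted p = 0.13) and -1.55 (adjusted p = 0.108), and without XY IP replicate 2 it was -2.14 (adjusted p = 0.00448).

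Grb10, an adaptor protein that restrains insulin and IGF receptor signalling, passed the test in neither sex. The lead probe A_52_P115787 (chr11:11830965-11831024, minus strand) was at 3.88 and 3.96 in the XX input and 3.35 and 3.79 in its IP, and at 4.45 and 4.39 in the XY input and 4.12 and 4.78 in its IP. The XX IP arrays lay just under the inputs and the XY IP arrays on both sides of them. The differences were -0.35 (log2, SE 0.41, adjusted p = 0.49) and 0.03 (SE 0.41, adjusted p = 0.961), and neither passed. A second Grb10 probe, A_52_P40363, was above background on the inputs alone, at levels from -0.97 to -0.35 there, with log2 differences of -0.14 (adjusted p = 0.793) in XX and -0.77 (adjusted p = 0.146) in XY. The last, A_51_P187151, was above background on 1 array of each input group, XX input replicate 1 (-2.79) and XY input replicate 2 (-2.49), and was not tested.

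Dlk1, a transmembrane relative of the Notch ligands that also occurs as a shed protein, gave the largest fall of the 10 genes in XY. The lead probe A_51_P135618 (chr12:109908264-109908323, plus strand) was at 5.06 and 5.36 in the XX input and 2.73 and 2.33 in the XX IP. In XY it was at 6.03 and 6.30 in the input and 1.85 and 3.13 in the IP. The IP arrays lay well under the inputs in each sex, and the IP levels of XX and XY overlapped. Dlk1 was 6.41-fold lower in the XX IP (log2 difference -2.68, SE 0.47, adjusted p = 0.000859) and 12.8-fold lower in the XY IP (-3.68, SE 0.47, adjusted p = 0.00021).

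The second Dlk1 probe, A_52_P177324 (chr12:109908025-109908084), was at 2.09 and 1.95 in the XX input and 3.21 and 3.24 in the XY input, and was not well above background on any IP array (-1.06 and -0.78 in XX, -1.28 and -0.85 in XY). It was at least 2.57-fold lower in the XX IP (log2 difference -2.94, adjusted p = 0.00019) and at least 6.77-fold lower in the XY IP (-4.29, adjusted p = 3.71e-05). The XX bound is under 4-fold, so the depletion of this probe in XX rests on signals below background. With the normexp background correction (another way of subtracting the local background) it passed as depleted in neither sex, with differences of -1.68 (adjusted p = 0.0298) in XX and -1.98 (adjusted p = 0.0594) in XY. With outlying local backgrounds replaced before that correction, the XX difference was the same and the probe was depleted in XY (-2.88, adjusted p = 0.000212).

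Plagl1 and Peg3 encode zinc finger proteins that regulate transcription, and Plagl1 is known to act on other imprinted genes, Igf2 and H19 among them. The lead Plagl1 probe A_52_P532456 (chr10:12821672-12821731, plus strand) was at 3.65 and 4.27 in the XX input and 3.23 and 3.54 in its IP, and at 5.31 and 5.32 in the XY input and 5.03 and 5.68 in its IP. The XY IP arrays lay on both sides of their inputs, and in XX the IP arrays lay a little under them. The differences were -0.58 (log2, SE 0.42, adjusted p = 0.272) in XX and 0.04 (SE 0.42, adjusted p = 0.952) in XY. With the 50th percentile scaling the XY values of Plagl1 and Grb10 were -1.83 for both, but that scaling moves all probes of an array alike and put the median of all tested probes at -1.90 in XY.

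The other Plagl1 probe, A_51_P432034, was above background on 1 XX input array and both XY input arrays and on no IP array. Its levels were -2.56 and -2.93 in the XX input and -1.15 and -1.96 in the XX IP, a difference of 1.19 (log2, SE 0.42, adjusted p = 0.0356). This was the 1 probe of the 15 that was higher in the XX IP at an adjusted p under 0.05, and since its IP signal was below background no fold is given. In XY it was at -1.79 and -1.96 in the input and -1.09 and -1.49 in the IP (0.58, adjusted p = 0.29).

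Peg3 was above background on the 4 input arrays alone, with both of its tested probes. The lead probe A_51_P206037 (chr7:6311815-6311874, minus strand) was at 1.09 and 0.79 in the XX input and -0.03 and -0.06 in its IP, and at 0.31 and -0.37 in the XY input and -0.02 and -0.11 in its IP. The XX groups were apart and the XY groups overlapped. The XX IP was at least 1.22-fold lower (log2 difference -0.98, SE 0.40, adjusted p = 0.0604), which did not pass, and the XY difference was -0.04 (adjusted p = 0.949). The second probe, A_52_P235861 (chr7:6310149-6310208), was at 0.38 and 0.57 in the XX input and -1.12 and -1.88 in the XX IP, a difference of -1.98 (SE 0.44, adjusted p = 0.00352). In XY it was at -1.30 and -1.35 in the input and -1.15 and -2.02 in the IP, with overlap (-0.27, adjusted p = 0.657). No fold is given for it, because in each sex the mean of the inputs lay under the mean, over the IP arrays, of the lowest signal counted as well above background. The remaining Peg3 probe, A_52_P1131620, was above background on no array and was not tested.

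Mest, which encodes a protein of the alpha/beta hydrolase fold and is paternally expressed in mesodermal tissue, had a single probe, A_51_P124535 (chr6:30698289-30698348, plus strand). It was at 6.22 and 6.75 in the XX input and 3.56 and 4.38 in the XX IP, and at 6.67 and 6.84 in the XY input and 4.23 and 5.41 in the XY IP. No IP array reached an input array in either sex. The XX IP was 5.71-fold lower (log2 difference -2.51, SE 0.49, adjusted p = 0.00158). The XY IP was 3.81-fold lower (-1.93, SE 0.49, adjusted p = 0.0089), just short of the 4-fold limit. Leaving out XY input replicate 1 or XY IP replicate 2 took it past the limit, to -2.02 and -2.52. Without XY IP replicate 1 the difference was -1.34 (adjusted p = 0.0493), and without XY input replicate 2 it was -1.84 (adjusted p = 0.0584).

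Ndn encodes necdin, a MAGE family protein that restrains cell proliferation, and Nnat encodes neuronatin, a small membrane protein of the endoplasmic reticulum. Nnat (A_52_P484956, chr2:157253683-157253742, plus strand) was at 0.85 and 0.74 in the XX input and -1.003 and 0.06 in its IP, and at 0.97 and 1.03 in the XY input and -0.51 and -0.03 in its IP. The IP values lay under the inputs in both sexes and were not above background. Nnat was at least 1.10-fold lower in the XX IP (log2 difference -1.26, SE 0.44, adjusted p = 0.0332) and at least 1.44-fold lower in the XY IP (-1.27, SE 0.44, adjusted p = 0.0383). Ndn (A_52_P451644, chr7:62227911-62227970, plus strand) was at -0.18 and -0.86 in the XX input and -0.55 and -1.58 in its IP, and at -0.18 and -0.39 in the XY input and -1.21 and -1.17 in its IP. Its XX groups overlapped and its XY groups did not, and neither difference passed (-0.54, adjusted p = 0.336, and -0.91, adjusted p = 0.128).

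Peg10, a gene derived from a retrotransposon and needed for the placenta, had 1 probe (A_52_P377723, chr6:4709867-4709926, plus strand) that was above background on XX IP replicate 1 alone. It was at -3.82 and -4.38 in the XX input and 2.32 and -1.71 in its IP, and at -4.98 and -4.49 in the XY input and -1.13 and -1.97 in its IP. The single high array was not matched by its replicate, and Peg10 was not tested.

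The IP replicates differed in level. On the 7 probes above background on all 8 arrays, XY IP replicate 2 was higher than replicate 1 for 7 of 7, by 0.66 to 1.28 (log2), and XX IP replicate 2 was higher than replicate 1 for 6 of 7, with a median of 0.44. Over all 4206 probes above background on every array the same differences had medians of 0.75 in XY and 0.72 in XX. XX IP replicate 2 and XY IP replicate 2 were also the IP arrays with more probes above background (8761 and 9468, against 6488 and 6068). The part of this in the results was not tested, and the counts of depleted probes without each array in turn ranged from 5 to 6 in XX and from 3 (without XY IP replicate 1) to 6 (without XY IP replicate 2) in XY. The share of all tested probes that was depleted moved too, from 8.01% to 13.1% in XX and from 5.77% (without XY IP replicate 1) to 12.1% (without XY IP replicate 2) in XY.

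Whether recovery with DAZL differed between the sexes was tested as the difference between the IP-versus-input contrasts of XX and XY. None of the 15 probes passed at an adjusted p under 0.05 by limma, against 3.30% of all tested probes, and none by an ordinary two-sample test, which called 3 of the 18265. At an unadjusted p under 0.05 there were 2 by each test, against 16.4% of all tested probes by limma and 14.0% by the two-sample test. By limma they were the second probe of Dlk1 (1.35 on the log2 scale, XX minus XY, SE 0.55, adjusted p = 0.232), which was above background on no IP array, and the second probe of Peg3 (-1.71, SE 0.62, adjusted p = 0.18). The lead probe of Dlk1 had a difference of 1.00 (SE 0.66, adjusted p = 0.517), with the fall in XY the deeper, and H19, Igf2 and Mest had -0.68 (SE 0.68), -0.70 (SE 0.63) and -0.59 (SE 0.69), with the fall in XX the deeper. At this precision a difference as large as that of Dlk1 did not pass, which does not show that the sexes were alike. The second Peg3 probe passed without XY IP replicate 2 (-2.15, adjusted p = 0.0468) and after quantile normalization (-1.56, adjusted p = 0.0327), and its IP signals were below background.

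The inputs of XX and XY were compared to ask where the genes were more abundant before precipitation. H19 and Peg3 had higher means in XX, and Dlk1 and Plagl1 in XY, but of the 15 probes only the second Peg3 probe passed at an adjusted p under 0.05. That is 1 probe higher in XX, against 5.87% of all tested probes, and 0 higher in XY, against 6.10%. At an unadjusted p under 0.05 by limma, 4 probes were higher in XX and 2 in XY, against 12.1% and 11.7% of all tested probes. An ordinary two-sample test gave 4 and 4, against 21.1% and 18.9%, and by it 1 probe was higher in XX and 1 in XY after adjustment, against 4.55% and 3.92%. The second Peg3 probe, at 0.38 and 0.57 in XX and -1.30 and -1.35 in XY, was 3.48-fold higher in the XX input (log2 difference 1.80, SE 0.44, adjusted p = 0.0188), while the lead Peg3 probe differed by 0.97 (SE 0.40, adjusted p = 0.161). Leaving out XX input replicate 1 or 2 or XY input replicate 1 or 2 ended the call, with adjusted p = 0.101, 0.16, 0.131 and 0.141.

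The lead H19 probe was higher on both XX inputs (6.43 and 5.90) than on either XY input (4.94 and 4.56), a log2 difference of 1.41 (SE 0.48, adjusted p = 0.0821). Both Dlk1 probes ran the other way, with no overlap between the sexes. Their differences, XX minus XY, were -0.95 (SE 0.47, adjusted p = 0.249) for the lead probe and -1.21 (SE 0.39, adjusted p = 0.0644) for the second. Plagl1 was at 3.65 and 4.27 in XX and 5.31 and 5.32 in XY (-1.36, SE 0.42, adjusted p = 0.0567). Igf2 had a difference of 0.68 (SE 0.45, adjusted p = 0.427), Grb10 of -0.50 (SE 0.41, adjusted p = 0.542) and Mest of -0.27 (SE 0.49, adjusted p = 0.829), and Ndn and Nnat of -0.24 and -0.20.

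**Figure D3:**
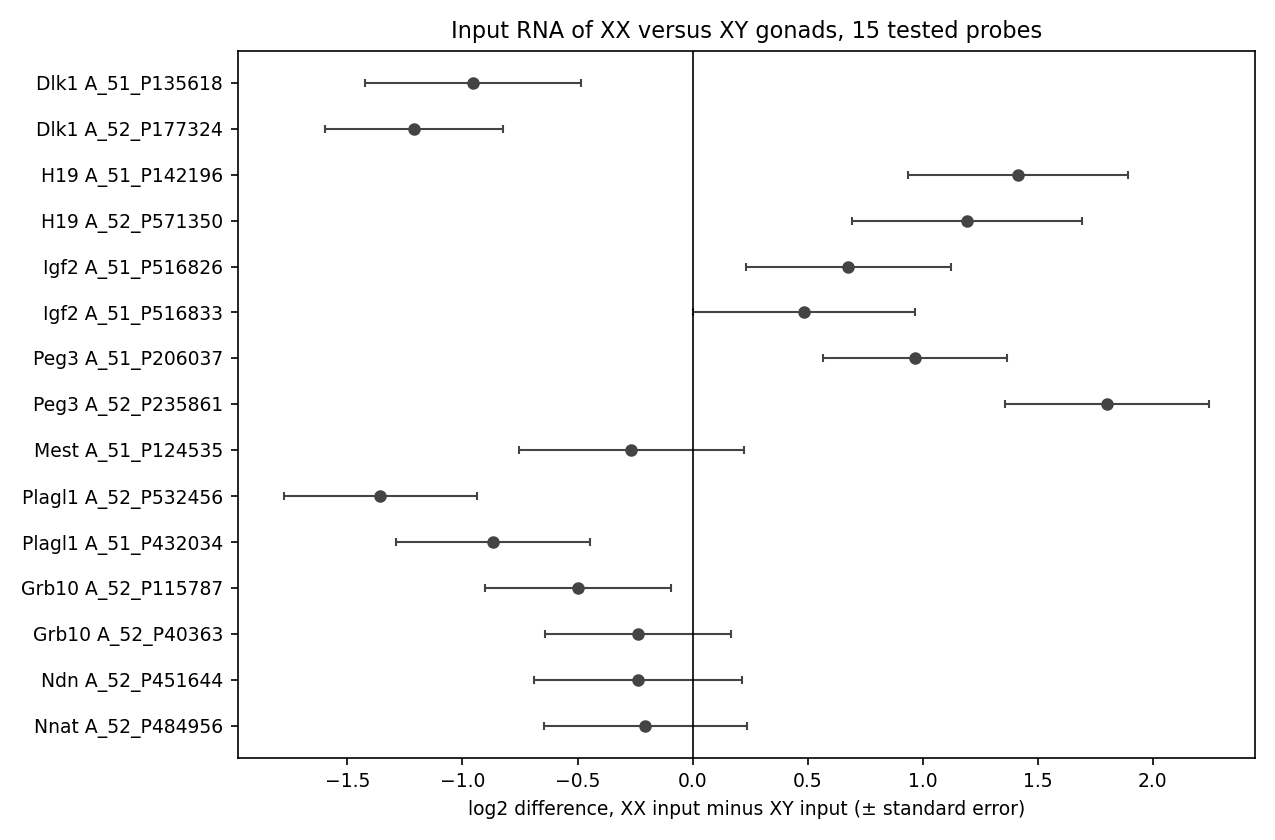
Log2 difference between the XX input and the XY input for each of the 15 tested probes. Points are contrasts of the limma fit with n = 2 arrays per group and bars are standard errors. The H19 and Peg3 probes lie to the right of 0, the Dlk1 and Plagl1 probes to the left, and the second Peg3 probe at 1.80 is the one that passed.

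Other imprinted genes were taken as a list. From a list of 55 such genes, 50 probes of 37 genes were tested and 18 genes had no tested probe. The median difference between IP and input was -0.55 (log2) in XX and 0.10 in XY. In XX 5 probes were depleted and 6 enriched, and in XY 5 were depleted and 5 enriched, shares of 50 that were near those of all tested probes (9.91% and 14.0% in XX, 7.68% and 10.2% in XY). Meg3, the maternally expressed non-coding RNA next to Dlk1, was depleted in both sexes with its probe A_51_P455997 (at least 7.67-fold in XX, adjusted p = 0.000116, and a log2 difference of -3.18 in XY, adjusted p = 0.000718). A second Meg3 probe, A_52_P391505, also passed, with bounds of at least 1.47-fold in XX and 1.91-fold in XY, and the third, A_52_P196568, ran the other way at signals below background in the IP (1.46, adjusted p = 0.0232, in XX and 1.161, adjusted p = 0.0681, in XY). Cdkn1c, a cell cycle inhibitor, was depleted in XX (log2 difference -2.57, adjusted p = 0.00306) and in XY (-2.30, adjusted p = 0.00729). Sgce, the gene beside Peg10, was depleted in XX with its probe A_51_P311137 (-2.44, adjusted p = 0.000436), which was above background on 1 of 2 XX IP arrays. The other Sgce probe, A_52_P27864, had a difference of -0.44 (adjusted p = 0.398) in XX and was above background on no IP array. Gatm was depleted in XX too (at least 2.04-fold, adjusted p = 0.000153). In XY, Mcts2 (-2.69, adjusted p = 0.00109) was depleted. A Gnas probe, A_52_P112182, also met the limits in XY, but it was not above background in the IP and was at least 1.165-fold lower there (adjusted p = 0.00267), and the other Gnas probe had a log2 difference of 0.36 (adjusted p = 0.47).

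The enriched genes of that list were others. Ube3a, a ubiquitin ligase, rose by 3.95 (log2, A_52_P625244, adjusted p = 6.1e-05) in XX and by 3.60 (adjusted p = 7.7e-05) in XY. Its other probes, also above background on all 8 arrays, had smaller differences, of 2.29 and 2.62 in XX, where both passed as enriched, and of 1.07 (A_52_P120968, adjusted p = 0.0499) and 1.72 (A_51_P268977, adjusted p = 0.00431) in XY, where neither reached 4-fold. Blcap, whose gene overlaps Nnat, rose by 3.00 (adjusted p = 0.000434) in XX and 3.26 (adjusted p = 0.000384) in XY. Magel2 and Mkrn3 are neighbours of Ndn, and Magel2 was above background on 1 of 2 XX IP arrays and 1 of 2 XY input arrays, and Mkrn3 on 1 of 2 XX input arrays. Magel2 rose by 2.52 (adjusted p = 0.0164) in XX and 5.35 (adjusted p = 0.000359) in XY, and Mkrn3 by 3.76 (adjusted p = 0.000231) in XX. Zrsr1, a splicing factor relative, rose by 3.36 (adjusted p = 9.9e-05) in XY. A Nap1l4 probe, A_52_P634822, also passed in XY (2.03, adjusted p = 0.00329) but was above background on no IP array. The other Nap1l4 probes had differences of 0.08 and 0.13 in XY. Between the inputs, Dio3 (2.36, adjusted p = 0.00174) and Cdkn1c (2.15, adjusted p = 0.026) were higher in XX, and Sfmbt2 (-2.36, adjusted p = 0.0104), Rian (-1.85, adjusted p = 0.0113), Asb4 (-1.77, adjusted p = 0.0202) and Zrsr1 (-1.42, adjusted p = 0.0275) were higher in XY.

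Markers of the cell types of the gonad moved with the IP as well. Of 18 germ cell probes, 9 were enriched in XX and 7 in XY, with 0 depleted, and their medians were 1.98 and 1.96 (log2, IP minus input). Of the 9 in XX, 2 (Nanos2 and Nanos3) were above background on no XX array, so those calls compare signals below background. Of 13 probes of stromal genes, which include collagens and Pdgfra, 5 were depleted and 1 enriched in XX and 3 were depleted in XY, with medians of -1.86 and -1.36. Of 7 erythroid probes 3 were depleted in each sex, with medians of -1.96 and -1.63. All 3 probes of ovarian supporting cell genes (Fst, Wnt4 and Rspo1) were depleted in XX, where Rspo1 was above background on both IP arrays, Fst on 1 and Wnt4 on none. In XY 0 were depleted, and Fst passed as enriched (2.16, adjusted p = 0.00724) with no XY array above background. Endothelial genes had medians of -0.97 and 0.00 over 7 probes, and 3 were depleted in XX.

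The stromal list had a summed level of 7.55 and 8.01 in the XX input and 5.42 and 6.52 in its IP, and of 8.36 and 8.49 in the XY input and 6.12 and 6.98 in its IP (log2 of the summed scaled signal). That of the imprinted genes was 8.74 and 8.84, 6.76 and 7.14, 8.62 and 8.70, and 6.97 and 7.92 in the same order. Of the stromal probes, 5 were above background on both XX IP arrays and 8 on both XY IP arrays. The erythroid list summed to between 8.84 and 9.60 on the inputs and to between 5.80 and 7.70 on the IPs. Sertoli and Leydig cell genes were higher in the XY input for 9 of 9 and 6 of 6 probes, and in the XY IP 2 of 9 and 3 of 6 were depleted, with medians of -0.92 and -2.25. In XX their inputs had summed levels of 1.98 to 1.99 and 1.38 to 1.87, and in the XX IP 3 of 9 and 1 of 6 passed as enriched, with medians of 1.33 and 1.164. Of these 4 probes, that of Cyp26b1 (3.17, adjusted p = 0.000204) was above background on all 4 XX arrays, and those of Amh, Sox8 and Cyp11a1 on none. The part of the cell makeup in the falls of the imprinted genes was not tested.

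**Figure D4:**
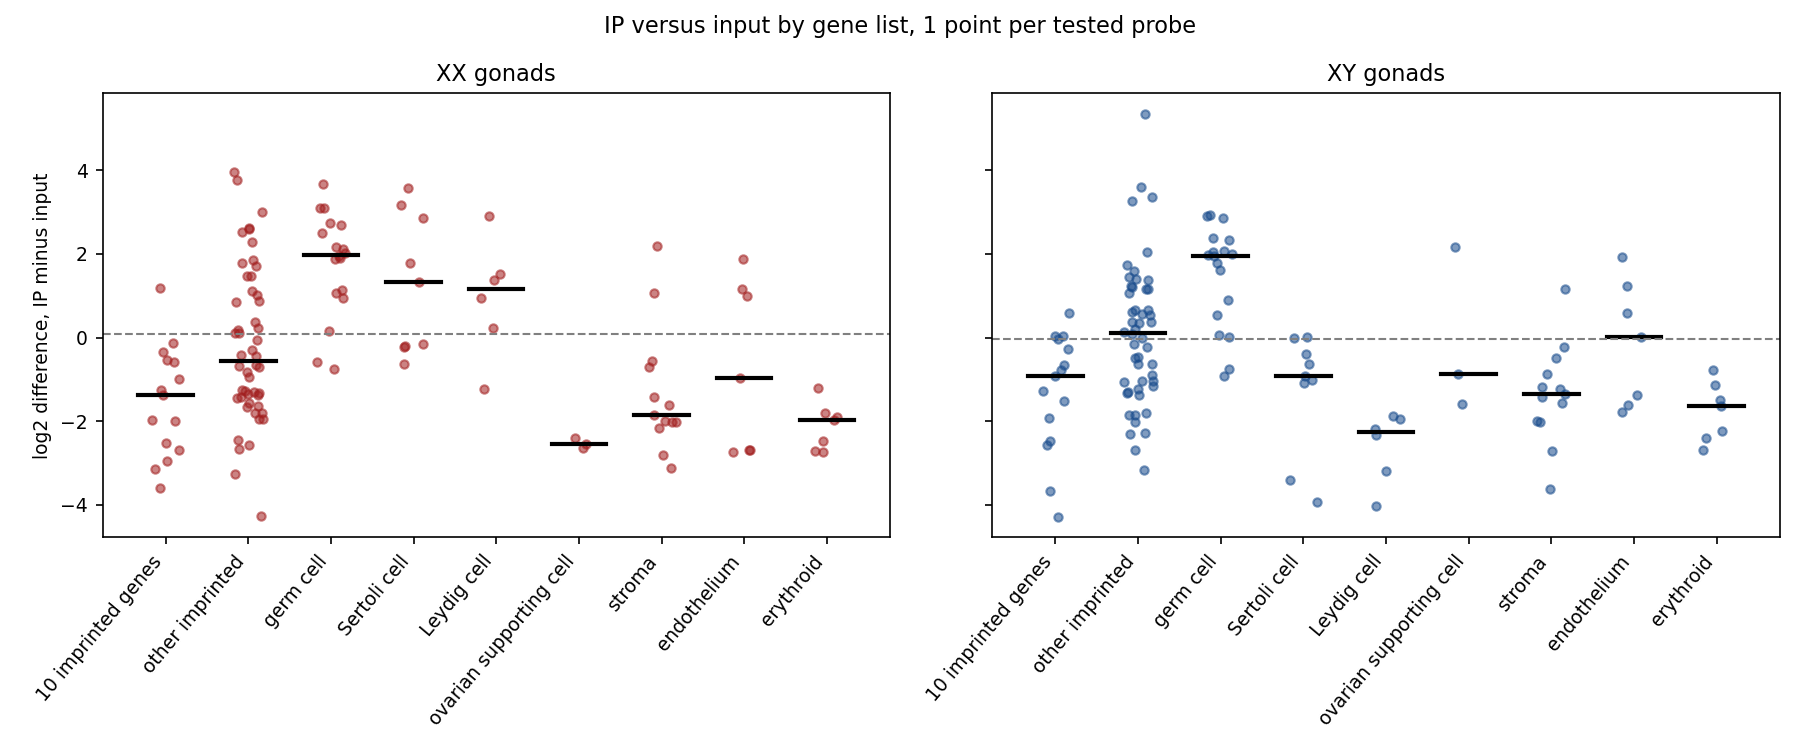
Log2 difference between IP and input for every tested probe of each gene list, in XX (left) and XY (right). Each point is 1 probe, black bars are list medians and the dashed line is the median of all tested probes. The 10 imprinted genes have medians of -1.36 and -0.91, on the side of the stromal and erythroid lists, and the germ cell list has medians of 1.98 and 1.96.

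The genes whose pattern over the 8 arrays was most like that of a lead probe were found by the distance between levels centred on each probe's own mean, where a smaller distance means a closer pattern. For Dlk1 they were Inf2, Serpina3a and Dctn1 (distances 0.904, 0.929 and 0.956 on the log2 scale). For H19 they were Krt8, Igfbp2 and Plin2 (0.603, 0.664 and 0.691), and for Igf2 Rabl6, Dnajc3 and Rnf130 (0.34, 0.389 and 0.467). Igfbp2, which encodes a binding protein of insulin-like growth factors, had log2 differences between IP and input of -3.14 in XX and -2.13 in XY, beside -3.15 and -2.47 for H19. Igfbp2 and Krt8 were above background on 5 of the 8 arrays and the lead H19 probe on all 8, so this match rests in part on signals below background. The nearest genes to the others were Txn1 for Mest (0.315), Elovl5 for Plagl1 (0.522), Alg9 for Grb10 (0.312), Unc45b for Peg3 (0.56), Irgq for Ndn (0.449) and Ptpa for Nnat (0.271). Peg3, Ndn and Nnat were above background on no IP array, and Unc45b, Irgq, Inf2 and Dctn1 were above background on 4 of the 8 arrays. These distances rest on 8 arrays in 4 groups, in part on signals below background, and are a description.

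The number of depleted probes depended on how the arrays were scaled. Scaling to the 50th percentile moved the median of all tested probes to -1.92 in XX and -1.90 in XY, and 14 and 11 of the 15 probes then passed as depleted, against 47.3% and 45.9% of all tested probes, with 97.9% and 97.5% of all calls on the lower side, against 41.4% and 43% with the 75th percentile. Scaling to the probes above background on all arrays gave 7 and 5 depleted probes, against 15.6% and 11.96%, with 63.1% and 63.5% of all calls on the lower side, and quantile normalization gave 7 and 6, against 17.99% and 13.6%, with 69% and 66.6%. The normexp background correction gave 7 and 4, against 11.4% and 4.39%, with 96.8% and 97.4% of all calls on the lower side, and the 4 in XY were the lead probes of Dlk1, H19, Igf2 and Mest. With outlying local backgrounds replaced it gave 7 and 7, against 11.4% and 10.9%. A scaling to another percentile or to a set of probes moves all probes of an array alike, so the gap between the median of the 15 probes and that of all tested probes (-1.45 in XX and -0.87 in XY) is fixed there. The gap was -1.12 and -0.83 after quantile normalization and -1.94 and -1.67 after normexp, by which 13 of the 15 probes in XX and 10 in XY lay under the median of all tested probes. Restricted to the probes above background on all arrays, 7 probes of the imprinted genes had medians of -1.996 and -1.51, beside 0.56 and 0.41 for all such probes. Dlk1 and H19 lead probes were depleted in both sexes under each of these, and the lead probes of Grb10, Plagl1, Peg3, Ndn and Nnat were enriched under none. Of all tested probes, 1.03% in XX and 1.20% in XY were enriched with the 50th percentile and 0.38% and 0.11% with normexp. There the lack of enriched probes says little about these genes. The shares were 9.15% and 6.88% with scaling to probes above background on all arrays, and 8.10% and 6.79% after quantile normalization. The fall of Mest in XY passed the 4-fold limit with each of these other scalings and with normexp. The lead probe of Plagl1 passed as depleted in XX with normexp (-2.17, adjusted p = 0.0174) and with the 50th percentile (-2.58, adjusted p = 0.00816). The lead probe of Igf2 passed as depleted in both sexes with normexp (-3.39, adjusted p = 0.00846, in XX and -2.52, adjusted p = 0.0455, in XY) and with the 50th percentile (-3.37, adjusted p = 0.00459, and -2.53, adjusted p = 0.0148). With the 50th percentile the lead probes of Ndn and Nnat also passed as depleted in both sexes, and those of Peg3 and Grb10 in XX.

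**Figure D5:**
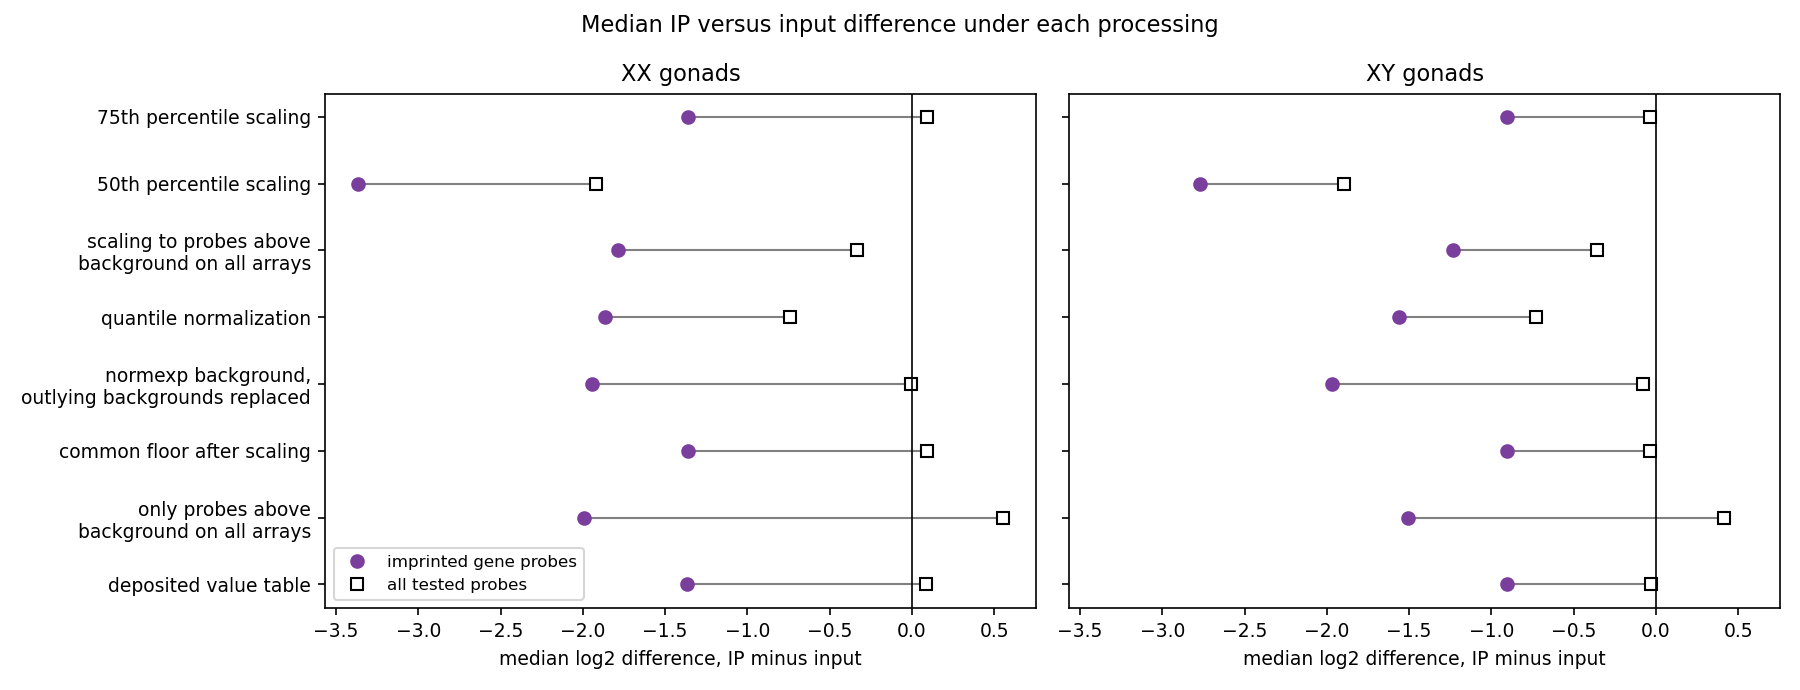
Median log2 difference between IP and input under each processing of the same arrays, for the probes of the imprinted genes (filled circles) and for all tested probes (open squares), in XX (left) and XY (right). The grey line joins the medians of 1 setting. The gap between them is fixed by construction under the scalings to a percentile or a set of probes, where both medians shift together. It is (imprinted genes minus all) -1.12 in XX and -0.83 in XY after quantile normalization. Normexp is drawn with outlying local backgrounds replaced, where the gap is -1.94 and -1.89.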

How the data were processed

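The deposited scanner files hold, per the file headers, a processed signal intensity for each spot, background-subtracted by Agilent Feature Extraction 9.5.3.1 (9.5 in the submitters' processing notes) and not normalized between arrays, beside each spot's mean intensity and median local background. The deposited table of log2 values was made by the authors by setting values under 1 to 1 and scaling to the 75th percentile. Its arrays share a 75th percentile of 5.05, with column medians from 1.62 to 4.05, and the constant they share is not given in the sources used here. It was an alternative. Its correlation with the scanner values was at least 0.99996.

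From the scanner values, outlying spots were dropped, signals under 1 were set to 1, spots of 1 probe were averaged, and log2 signals were taken relative to each array's 75th percentile over probes that are not controls. Outlying on every spot of at least 1 array, 73 of 41174 probes were excluded. A probe was tested when both arrays of any 1 group were well above background for it. No probe was saturated. Probes were named by accession through the GRCm38.p6 gene table (23374), by symbol (6733) or by older symbol (2919), and 8148 were not named. Probe positions are those of the files (mm8), and no annotation of that build was used here, so exons and untranslated regions of the probes are left out. The precision of each value is limited by 2 arrays per group.

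Group means were fitted with limma 3.58.1 (R 4.3.3) to all 8 arrays with no covariate, moderated with eBayes (4 residual and 7.82 prior degrees of freedom), in two-sided tests with Benjamini-Hochberg adjustment over 18265 probes per contrast. IP contrasts also needed 4-fold, the fold limit of the study, which selected probes by it together with P under 0.05. Its methods name no test for these arrays. For "at least" folds, a dim group's level was, per array, its own signal or, if higher, the lowest signal well above background there. On simulated data with 200 probes changed by 3 on the log2 scale, 192 were found for XX and 190 for XY among 18265, with 6 and 10 false calls.

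The genes and gene lists were chosen with earlier results of these data known, and lists are described by counts and medians without a test. Named from the other imprinted genes were called genes with the 4 largest changes in each direction, and Nap1l4, the remaining gene enriched in XY. The nearest genes were the 3 closest to Dlk1, H19 and Igf2 and the closest to every other tested gene, by Euclidean distance. Alternatives were other scalings (50th percentile, probes above background on all arrays, quantile), normexp with an offset of 50, a common floor, other filters, the deposited table, 4 arrays alone, an ordinary two-sample test, a replicate block and leaving out each array. The normexp correction with local backgrounds over 6 median absolute deviations from the median replaced was chosen after seeing the data.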

Additional observations from a re-analysis of the deposited data

Results flagged for a closer look

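The Peg10 probe A_52_P377723 was above background on 1 of the 8 arrays, XX IP replicate 1, at 2.32 (log2 relative to the 75th percentile), while XX IP replicate 2 was at -1.71 and not above background, so the probe was left out of the tests. No other result of the 10 genes met a rule for a closer look. No probe had a called difference between the sexes in IP versus input, and groups of 2 arrays are too small for a test of outlying samples.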

How the results depend on the processing

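Each count below is of the 15 tested probes unless another filter is named. For probes depleted in the XX IP (5), the 50th percentile scaling gave 14 (against 47.3% of all tested probes), the probes above background on all arrays alone gave 3 of 7 (against 8.87%), and an ordinary two-sample test, which called 1 of the 18265 probes, gave 0. For probes depleted in the XY IP (4), these gave 11 (against 45.9%), 2 of 7 (against 5.49%) and 0 (2 of the 18265 called), and normexp with outlying local backgrounds replaced gave 7 (against 10.9%). With no filter on dim probes 3 probes of Grb10, Peg3 and Peg10 passed as enriched in XX and 2 (Peg3 and Peg10) in XY, of 18 and against 56.8% and 54.4% of all 41101 probes, where the filter left 0, and in no group were both arrays well above background for these probes. The difference between the sexes gave 1 probe, the second of Peg3, after quantile normalization (5.00% of all tested probes) and after normexp with backgrounds replaced (1.42%), where 0 (3.30%) had passed. For probes higher in the XX input (1), 0 passed with no filter (1.34% of all probes) and 0 among those above background on all arrays (3.07%), and 6 passed with only the 4 input arrays (against 22.6% of all tested probes). The 1 was the lead H19 probe in place of the second Peg3 probe after normexp and after scaling to probes above background on all arrays. For probes higher in the XY input (0), scaling to probes above background on all arrays gave 2 (against 5.16%), quantile normalization 1 (3.73%), normexp with backgrounds replaced 1 (7.45%), an ordinary two-sample test 1 (3.92%) and only the 4 input arrays 5 (against 21.5%). The cause of these shifts was not tested. Leaving out each array in turn gave 5 to 6 probes depleted in XX, 3 to 6 in XY, 0 enriched in either (lowest 0, highest 0), 0 to 1 for the difference between the sexes (1 without XY IP replicate 2, against 8.52% of all tested probes), 0 to 2 higher in the XX input (against 2.70% to 8.91%) and 0 to 2 higher in the XY input (2 without any 1 IP array, against 7.25% to 8.36%).

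With the replicate number as a block within each sex (replicate block), 5 probes were depleted in XX, 4 in XY and 0 differed between the sexes, and the block changed none of these counts. The shares of all tested probes were 9.93%, 7.72% and 8.06%, against 9.91%, 7.68% and 3.30% without the block. The labels do not say that equal numbers pair the samples, and the deviations of same-numbered samples correlated at 0.07 in XX and 0.09 in XY over 18265 probes. The block could not be fitted to the comparison of the inputs. Of 690 alternative values of the 9 lead probes, 646 kept their side of the limits (35 of them with a changed sign and neither value passing), 6 lost the call, 38 gained one and 0 passing values changed sign. On the IP arrays 7 of the 15 probes were above background on no array, so a fold of these is a bound at most.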
